A study of Mus musculus with 6 samples.

Results

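A set of 40 mouse imprinted genes, chosen by symbol from what is known of genes expressed mainly from 1 parental allele, was followed in RNA sequencing of a cultured germline cell line before and after differentiation. Of the 40 symbols, 38 had a row in the table of 24672 genes. No row carried the symbols Peg10 or Ddc8, and these genes are not analysed here. The table has no allele data, so each value is the sum over both parental alleles, and whether a gene was expressed from 1 allele in these cells was not measured.

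The study asked how retinoic acid, with other factors, starts meiosis in female germline stem cells (FGSC). Polyadenylated RNA of 3 libraries labelled FGSC was compared with that of 3 libraries labelled Dif-FGSC, the same kind of cells after differentiation. All were from a C57BL/6 mouse line past passage 20. The FGSC grew on inactivated STO fibroblast feeders with leukaemia inhibitory factor, basic fibroblast growth factor and GDNF at 10 ng/mL each and EGF at 20 ng/mL. The Dif-FGSC grew on inactivated granulosa cells with retinoic acid at 0.1 µmol/L and with BMP4 and basic fibroblast growth factor at 10 ng/mL each. Retinoic acid, the feeder layer and the growth factors changed together, so their parts in any difference cannot be told apart. The direction of every difference rests on reading the column prefix con as FGSC.

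Levels are FPKM, the number of sequenced fragments of a transcript divided by its length in kilobases and by the library's mapped fragments in M (mega). Depth, estimated from the spacing of the lowest values, was 17.4 to 27.3 M fragments per library. The labels were checked against cell type markers. Of 12 germ cell markers none reached a mean of 1 FPKM, and 11 stayed below 0.1 FPKM in every library, Ddx4 and Dazl among them. Dazl was listed at 0 in all 6 libraries. The summed level of the 12 was 0 to 0.0837 FPKM in FGSC libraries and 0.163 to 0.193 FPKM in Dif-FGSC libraries. No fibroblast marker (12) or granulosa cell marker (10) reached a mean of 1 FPKM. Their sums were 0.374 to 0.687 and 0.663 to 0.845 FPKM in FGSC, and 0.263 to 0.416 and 0.474 to 0.674 FPKM in Dif-FGSC. By contrast, 11 of 16 markers of mast and other blood cells passed that level, with sums of 857 to 926 FPKM in FGSC and 1137 to 1143 FPKM in Dif-FGSC. Among them Cpa3 had means of 288 FPKM in FGSC and 301 FPKM in Dif-FGSC, Gata2 185 and 248, and Kit 89.0 and 114. Of the 16, 2 stayed below 0.1 FPKM in every library, the mast cell genes Fcer1a and Tpsb2. Ms4a2, Hdc and Cma1, also mast cell genes, missed a mean of 1 FPKM too. Ms4a2 reached at most 0.174 FPKM and Hdc at most 0.149 FPKM. Cma1 had means of 0.0288 FPKM in FGSC and 1.24 FPKM in Dif-FGSC. Tpsb2 was listed at 0 throughout, which can be a failed estimate, as for Hspa8 below. The same limit holds for the 7 germ cell markers listed at 0 in all 6 libraries, Dazl among them. It also holds for the 2 fibroblast and 5 granulosa cell markers listed at 0 throughout. With these limits the markers go against the germ cell label, and FGSC and Dif-FGSC below are names of libraries only.

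In genomic imprinting a gene carries a methylation mark that differs between the chromosome from the mother and that from the father, and only 1 of the copies is transcribed. The marks are wiped in primordial germ cells and set again during the growth of the oocyte or in the male germ line, then protected in the embryo by DNA methyltransferases and by the zinc finger proteins ZFP57 and ZFP445, which bind methylated DNA and recruit TRIM28. Many imprinted genes act on fetal growth, placenta and brain, and paternally and maternally expressed genes often lie together in a cluster with 1 control region.

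Promoters are shown for 4 members: Mest, which had the largest difference, the overlapping Zrsr1 and Commd1, and Mcts2, an intronless gene like Zrsr1. They were chosen with the values known, and CpG is marked since methylation at CpG is what distinguishes parental copies. RefSeq promoter windows of 300 bases (build GRCm38.p6, not the build of the expression files) were used, with 52 windows from 33 members. These include 9 of the members tested. Impact, which was tested and called higher, was left out of the members' windows by a filter on position. The figures for members' windows below therefore do not cover it. That filter was not applied to the comparison sets below, so members and comparison sets were not filtered alike. CpG is in capitals and each sequence reads 5′ to 3′ along the gene. The upstream Mest start is at chr6:30733256-30733555 and the downstream one at chr6:30737800-30738099, both on the + strand. The window of Zrsr1 is chr11:22971755-22972054 on the + strand, that of the Commd1 start shown chr11:22982235-22982534 on the - strand, and that of Mcts2 chr2:152686898-152687197 on the + strand.
Mest upstream start: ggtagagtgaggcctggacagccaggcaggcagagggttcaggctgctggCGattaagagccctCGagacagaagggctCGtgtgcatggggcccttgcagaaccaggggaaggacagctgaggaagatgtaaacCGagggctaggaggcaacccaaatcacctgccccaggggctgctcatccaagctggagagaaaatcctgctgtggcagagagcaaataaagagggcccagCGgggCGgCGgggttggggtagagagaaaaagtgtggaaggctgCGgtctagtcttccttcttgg
Mest downstream start: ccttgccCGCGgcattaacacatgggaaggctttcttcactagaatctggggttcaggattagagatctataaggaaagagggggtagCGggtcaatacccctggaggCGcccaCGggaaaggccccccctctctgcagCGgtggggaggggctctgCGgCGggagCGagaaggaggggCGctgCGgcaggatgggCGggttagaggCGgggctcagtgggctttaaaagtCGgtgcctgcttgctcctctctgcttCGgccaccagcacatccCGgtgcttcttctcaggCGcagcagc
Zrsr1: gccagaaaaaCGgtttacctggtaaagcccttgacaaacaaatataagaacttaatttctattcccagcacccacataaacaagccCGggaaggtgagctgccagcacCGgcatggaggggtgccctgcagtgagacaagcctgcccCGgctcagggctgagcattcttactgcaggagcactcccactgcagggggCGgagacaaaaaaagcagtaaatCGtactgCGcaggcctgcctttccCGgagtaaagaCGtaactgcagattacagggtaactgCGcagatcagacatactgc
Commd1: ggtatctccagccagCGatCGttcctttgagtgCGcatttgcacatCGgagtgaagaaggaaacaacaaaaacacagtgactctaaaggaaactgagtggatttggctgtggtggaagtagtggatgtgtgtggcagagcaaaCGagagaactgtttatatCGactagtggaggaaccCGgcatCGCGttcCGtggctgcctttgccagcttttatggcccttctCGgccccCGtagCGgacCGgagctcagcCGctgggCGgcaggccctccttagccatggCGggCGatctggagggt
Mcts2: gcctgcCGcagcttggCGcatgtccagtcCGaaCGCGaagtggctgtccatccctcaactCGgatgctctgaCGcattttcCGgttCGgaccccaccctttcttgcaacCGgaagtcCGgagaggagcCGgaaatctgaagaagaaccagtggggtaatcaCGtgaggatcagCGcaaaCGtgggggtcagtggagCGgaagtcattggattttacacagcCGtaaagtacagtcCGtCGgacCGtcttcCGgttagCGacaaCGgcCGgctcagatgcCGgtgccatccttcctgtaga
The upstream Mest window has 8 CpG and the downstream one 17. Zrsr1 has 10 CpG, the Commd1 start shown 18 and Mcts2 25. Commd1 has a second start, not shown, at chr11:22972817-22973116 on the - strand, with 17 CpG. The median was 15.5 CpG over the 52 windows of members, against 7 over all 32851 windows of the table and 22 over the 9212 windows of genes with a mean of at least 1 FPKM. The letters TGCCGC, the core that ZFP57 binds when methylated, were searched on both strands (GCGGCA on the other). They occur 2 times in the downstream Mest window, once in those of the Commd1 start shown and of Mcts2, and have no match in those of Zrsr1, the second Commd1 start and the upstream Mest start. At least 1 match was present in 25.0% of members' windows and in 11.6% of all windows, and in 20.2% of windows of genes with a mean of at least 1 FPKM. These are counts of letters, and no methylation or binding was measured.

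Most of the imprinted genes had little or no RNA in either group. The test, a moderated linear model (limma) on log2(FPKM + 1), took genes with a mean of at least 1 FPKM over the 6 libraries. This was met by 10 of the 38 members (26.3%), against 37.1% of all genes. Another 3 members, Grb10, Igf2r and Nnat, reached 0.1 FPKM in at least 1 library, and 25 stayed below 0.1 FPKM in all 6. Low values were common in the table: of all 24672 genes, 13108 stayed below 0.1 FPKM in every library and 10035 were listed at 0 throughout. Of the 25 members, 18 were listed at 0 in every library: H19, Meg3, Rian, Mirg, Dlk1, Peg3, Usp29, Zim1, Kcnq1, Phlda2, Plagl1, Snrpn, Ndn, Magel2, Mkrn3, Peg12, Ppp1r9a and Asb4. For the 10 of them with 1 RefSeq transcript, 3 fragments in the shallowest library would have been 0.0198 FPKM (Peg3) to 0.228 FPKM (Phlda2). That limit covers counting error only. An exact 0 can also be a failed estimate in this table: Hspa8, a chaperone gene used by nearly every cell, was listed at 0 in the 3 FGSC libraries and at 1451, 1455 and 1515 FPKM in the Dif-FGSC libraries.

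**Figure D1:**
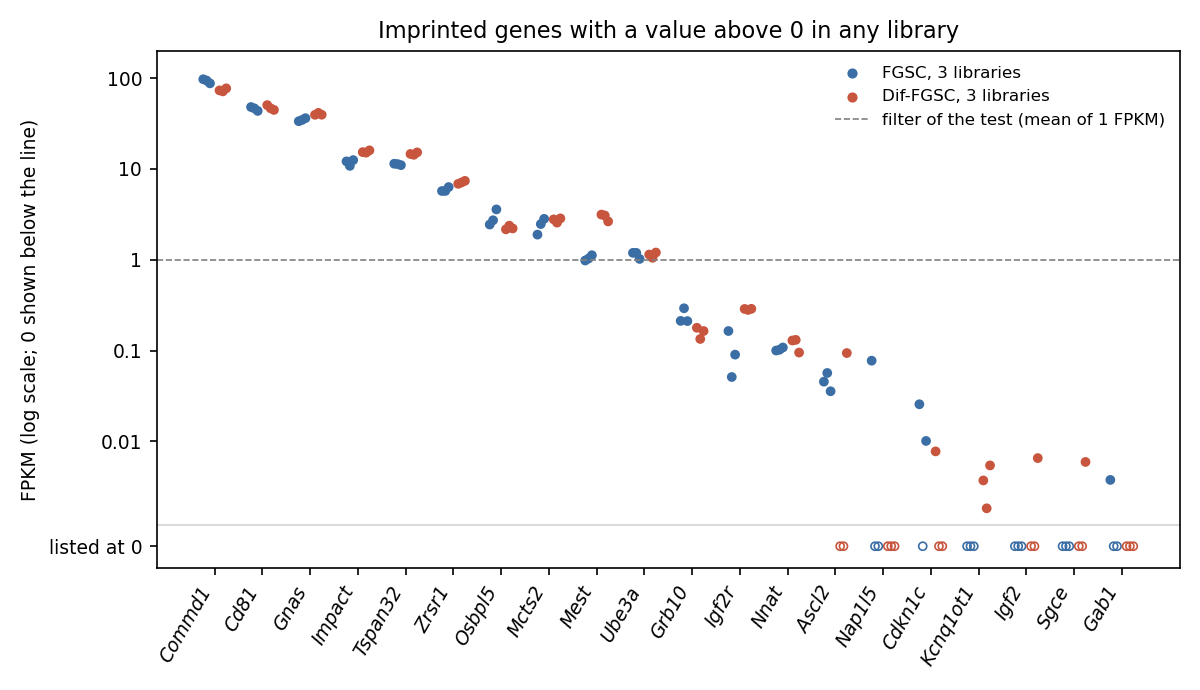
FPKM of the 20 imprinted genes above 0 in any library, on a log scale, each point a library (blue, FGSC; red, Dif-FGSC), with values of 0 as open circles below the grey line. The 10 genes from Commd1 to Ube3a have means of at least 1 FPKM (dashed line), and Mest shows the widest separation of the groups among them.

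By cluster, all 4 members of the Dlk1-Meg3 cluster were listed at 0 in all 6 libraries, as were the 3 of the Peg3 cluster. In the Snrpn domain, linked to Prader-Willi and Angelman syndromes, the 5 paternally expressed members were listed at 0, and Ube3a, the ubiquitin ligase that is maternally expressed in neurons, was at 1.02 to 1.20 FPKM. H19, the noncoding RNA paired with Igf2, was at 0 throughout, and Igf2, the fetal growth factor, was above 0 in 1 library only (0.00654 FPKM, Dif-FGSC replicate 3). The Kcnq1 domain was divided. Cd81, Tspan32 and Osbpl5, whose imprinting is known mainly from placenta, had RNA at 2.16 FPKM or more in every library. Cdkn1c, a cyclin-dependent kinase inhibitor that restrains growth, did not pass 0.0256 FPKM, and Ascl2, a transcription factor of the trophoblast, did not pass 0.0938 FPKM. Kcnq1ot1, the noncoding RNA that silences the domain on the paternal copy, was listed at 0 in the FGSC libraries and at 0.00371, 0.00183 and 0.00543 FPKM in the Dif-FGSC libraries. Nap1l5 (at most 0.0773 FPKM), Sgce (0.00593) and Gab1 (0.00376) were each above 0 in 1 library.

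Among the 10 members tested, 5 rose in Dif-FGSC (Mest, Impact, Tspan32, Zrsr1 and Gnas), 1 fell (Commd1), and 4 did not pass the adjusted p of 0.05 (Cd81, Osbpl5, Mcts2 and Ube3a). These 6 of 10 stand against 65.1% of all 9162 genes tested, of which 3343 (36.5%) were higher and 2622 (28.6%) lower. Under quantile normalization the split over all genes became 2793 higher and 3182 lower, and the 5 members that rose and the 1 that fell remained called in the same directions. In 7 of the 10 the libraries of the groups did not overlap, against 70.7% of all genes tested. The median difference on the log2(FPKM + 1) scale was 0.17 for the 10 members and 0.03 for all genes. The share of members that changed was thus near that of genes in general. In RNA from whole cultures, a change in the make-up of the cells and a change in RNA per cell cannot be told apart.

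Mest had the largest difference of the members tested. It encodes an enzyme of the alpha/beta hydrolase fold, is paternally expressed, and is abundant in embryonic mesoderm. Its level was 0.98, 1.03 and 1.12 FPKM in the FGSC libraries and 3.14, 3.07 and 2.64 FPKM in the Dif-FGSC libraries. Every Dif-FGSC library was above every FGSC library. The means were 1.04 ± 0.0695 and 2.95 ± 0.268 FPKM (SD, n = 3 libraries each), a ratio of 2.83. The difference was 0.95 ± 0.065 (SE) on the log2(FPKM + 1) scale with an adjusted p of 1.4e-05 (limma). Mest is listed with 3 RefSeq transcripts and its values have the decimals of a mean over 3, so which of its starts the RNA came from is not known.

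Impact, a broadly imprinted paternal gene whose protein restrains the amino acid sensor kinase GCN2, was at 12.1, 10.8 and 12.5 FPKM in FGSC and at 15.3, 15.1 and 16.0 FPKM in Dif-FGSC. The groups did not overlap, and the difference was 0.37 ± 0.056 (adjusted p = 0.000757, limma). Zrsr1, an intronless paternal gene for a splicing factor related to U2AF, was at 5.71, 5.72 and 6.31 FPKM in FGSC and at 6.85, 7.09 and 7.38 FPKM in Dif-FGSC, again without overlap. Its difference was 0.23 ± 0.049 (adjusted p = 0.0044, limma). Mcts2, the other intronless paternal gene among the 10, encodes a protein like the translation factor MCTS1. It was at 1.89, 2.47 and 2.82 FPKM in FGSC and 2.78, 2.56 and 2.85 FPKM in Dif-FGSC, and the groups overlapped. Its difference was 0.15 ± 0.099 with a 95% interval from -0.09 to 0.38 (adjusted p = 0.225, limma). Without FGSC replicate 3, the highest of that group, Mcts2 passed the test (0.24, adjusted p = 0.0472), and without FGSC replicate 1, the lowest, the difference was 0.04 (adjusted p = 0.672).

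Zrsr1 and Mcts2 arose as copies of the X-linked Zrsr2 and Mcts1, whose reads they can share. Zrsr2 had 5.51 ± 0.285 FPKM in FGSC and 5.78 ± 0.211 FPKM in Dif-FGSC (difference 0.06, adjusted p = 0.313, limma), and its groups overlapped. Mcts1 had 14.7 ± 0.308 and 14.1 ± 0.185 FPKM (difference -0.06, adjusted p = 0.131, limma). Its groups did not overlap, with the lower values in Dif-FGSC, as groups did not in 70.7% of all genes tested. Neither parent gene passed the test, with 95% intervals from -0.05 to 0.17 and from -0.14 to 0.01.

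Of the maternally expressed members, Tspan32 rose and Commd1 fell. Tspan32, a tetraspanin of blood cells, was at 11.4, 11.3 and 11.0 FPKM in FGSC and 14.6, 14.3 and 15.2 FPKM in Dif-FGSC, with no overlap. Its difference was 0.36 ± 0.037 (adjusted p = 0.000101, limma). Of the 11 tested markers of mast and other blood cells, 8 rose and none fell, against 36.5% higher and 28.6% lower over all genes tested, with a median difference of 0.36; Laptm5, for example, went from 99.8 to 187 FPKM. Their part in the rise of Tspan32 was not tested. Commd1, whose protein acts in copper export and in turning off NF-κB, was at 97.1, 93.9 and 87.5 FPKM in FGSC and 73.2, 71.4 and 77.1 FPKM in Dif-FGSC. All 3 Dif-FGSC libraries lay below the FGSC libraries, and the difference was -0.32 ± 0.046 (adjusted p = 0.000558, limma).

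The other 3 maternally expressed members tested were not called. Cd81, a tetraspanin found on most cells, was at 48.0, 46.4 and 43.5 FPKM in FGSC and at 50.4, 46.5 and 44.6 FPKM in Dif-FGSC. Its groups overlapped, with a difference of 0.04 ± 0.054 and a 95% interval from -0.09 to 0.16 (adjusted p = 0.576, limma). Ube3a was at 1.19, 1.19 and 1.02 FPKM in FGSC and at 1.14, 1.05 and 1.20 FPKM in Dif-FGSC. The groups overlapped here too, and the 95% interval of the difference ran from -0.14 to 0.14 (adjusted p = 0.99, limma). Osbpl5, a lipid transfer protein of the oxysterol-binding family, was at 2.44, 2.72 and 3.58 FPKM in FGSC and at 2.16, 2.37 and 2.21 FPKM in Dif-FGSC. Its groups did not overlap, but FGSC replicate 3 stood above the others of its group. The difference of -0.26 ± 0.102 missed the threshold (adjusted p = 0.0559, limma), with a 95% interval, not adjusted for the number of genes, from -0.50 to -0.02. It passed without FGSC replicate 1 (-0.35, adjusted p = 0.018), under median-ratio scaling (0.0355) and under quantile normalization (0.0177). Without FGSC replicate 3 the difference was -0.14 (adjusted p = 0.0773, limma).

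Gnas makes the stimulatory G protein subunit of hormone receptors from both alleles in most tissues, beside transcripts from the maternal or the paternal allele only. It was at 33.5, 34.6 and 36.2 FPKM in FGSC and 39.4, 41.4 and 39.5 FPKM in Dif-FGSC. The groups did not overlap and the difference was 0.20 ± 0.038 (adjusted p = 0.00237, limma). The table gives 1 value for the symbol, and its transcripts could not be separated.

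**Figure D2:**
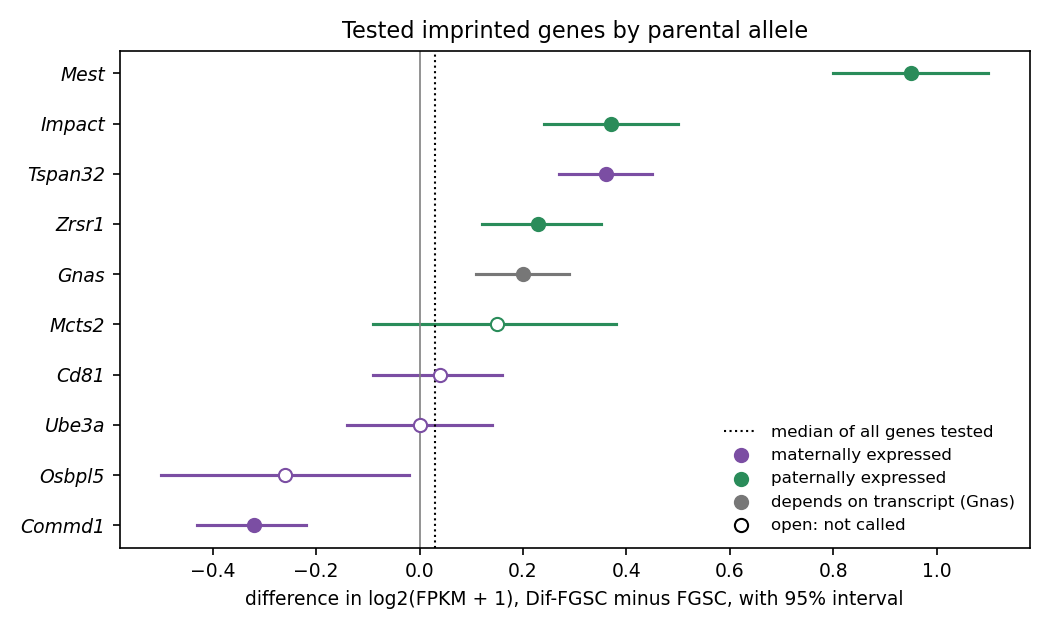
Difference in log2(FPKM + 1) between the 3 Dif-FGSC and the 3 FGSC libraries for the 10 imprinted genes tested, with the 95% interval of the moderated fit, coloured by parental allele, filled where the adjusted p was under 0.05. Mest lies at 0.95, the other 4 genes that rose at 0.20 to 0.37, Commd1 at -0.32, and the dotted line marks the median of all genes tested (0.03).

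The classes by parental allele differed in which genes were measurable. Of 19 paternally expressed members with a row, 4 were tested (Mest, Impact, Zrsr1 and Mcts2), and 3 rose and none fell, against 36.5% higher and 28.6% lower over all genes tested. Their median difference was 0.30, and it was 0.21 under quantile normalization and 0.01 when genes of any level were included. Of 18 maternally expressed members 5 were tested (Commd1, Cd81, Tspan32, Osbpl5 and Ube3a), with 1 higher, 1 lower and a median of -0.00. No test between the classes was made. All 4 tested paternal genes are imprinted in most tissues, whereas all 5 tested maternal genes are known as imprinted in a few tissues only, such as placenta or brain. None of the 11 maternal genes with broad imprinting reached a mean of 1 FPKM. The parental allele and the breadth of imprinting therefore cannot be told apart. By breadth, 4 of 29 broadly imprinted members were tested and 6 of 9 tissue-limited ones, Gnas included.

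Summed over members, paternally expressed genes had 20.1 to 22.9 FPKM per FGSC library and 28.0 to 29.0 FPKM per Dif-FGSC library. Maternally expressed genes had 147 to 161 FPKM and 136 to 142 FPKM. These sums add the listed values, which for genes with several transcripts appear to be means over them. Neither pair of ranges overlapped, and neither did the sums over all genes (375225 to 378093 FPKM in FGSC, 355130 to 356664 FPKM in Dif-FGSC). Single genes weigh heavily in these sums. In the maternal sum Commd1 had means of 92.8 FPKM in FGSC and 73.9 FPKM in Dif-FGSC, while Cd81 (46.0 and 47.2) and Tspan32 (11.2 and 14.7) did not fall. In the paternal sum Impact had means of 11.8 and 15.5 FPKM.

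**Figure D3:**
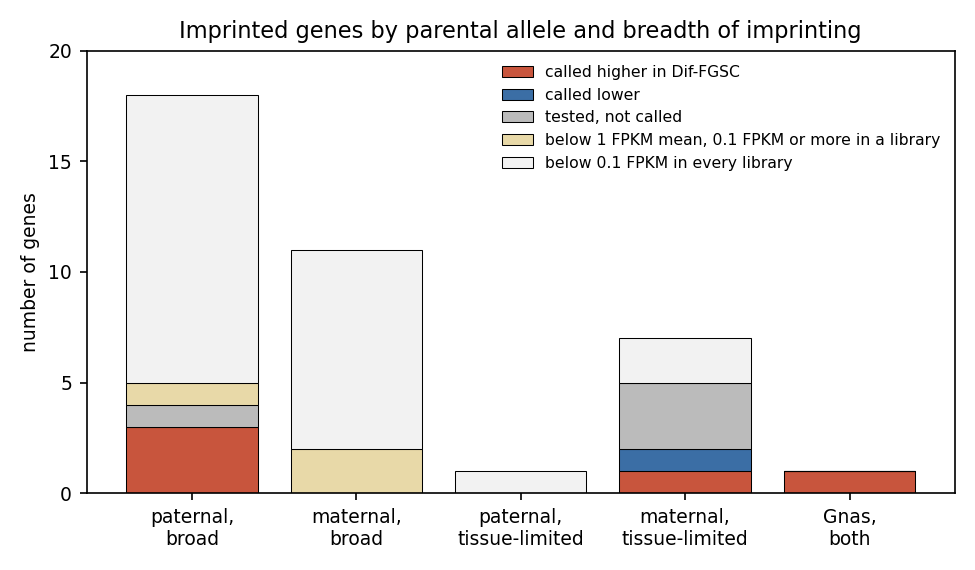
Number of imprinted genes in the table by parental allele and by whether imprinting is known in most tissues (broad) or in a few, split by level and by call in the comparison of Dif-FGSC with FGSC. The 3 paternal genes that rose are all broad, and the tested maternal genes are all tissue-limited.

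Below the level of the test, Grb10 and Igf2r, both maternally expressed and both known to restrain growth, had groups that did not overlap, Igf2r with higher and Grb10 with lower values in Dif-FGSC. Non-overlap was common, at 70.7% of the genes tested above that level. Igf2r encodes the receptor that clears IGF2 from the cell surface. Its level was 0.164, 0.0511 and 0.0901 FPKM in FGSC and 0.287, 0.280 and 0.288 FPKM in Dif-FGSC, a ratio of means of 2.80. These values stand for about 39.8, 10.0 and 13.9 fragments and 57.5, 48.4 and 51.1 fragments, and FGSC replicate 1 lay well above the other FGSC libraries. When genes of any level were tested, Igf2r was higher (0.22 on the log2(FPKM + 1) scale, adjusted p = 0.00449, limma), in a test that called 44.0% of 14637 genes in either direction. Grb10 encodes an adaptor that dampens insulin receptor signalling. It was at 0.212, 0.292 and 0.211 FPKM in FGSC and 0.178, 0.134 and 0.164 FPKM in Dif-FGSC, a ratio of 0.665, and was not called there (adjusted p = 0.0515, limma). Nnat, a small membrane protein first known from brain, was at 0.100 to 0.108 FPKM in FGSC and at 0.0950 to 0.131 FPKM in Dif-FGSC, with overlap.

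Of 20 genes of the insulin-like growth factor axis in the table, 11 were listed at 0 in all libraries, as were 10035 of all 24672 genes. Of the 2 tested, 1 rose and none fell. That is too few to set against the 36.5% higher and 28.6% lower of all genes tested. Igfbp4, which binds IGFs outside the cell, rose from 330 ± 12.4 to 488 ± 2.02 FPKM (0.57, adjusted p = 5.02e-06, limma). Insrr was not called. Igf1r, the IGF1 receptor, was listed at 0 in all 6 libraries, which can be a failed estimate as for Hspa8, and Igf1 was at 0.471 to 0.613 FPKM.

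Several members lie within, or overlap, another gene in RefSeq, and their values were set beside that gene's. Zrsr1 lies within Commd1 on the other strand, and the pair moved in opposite directions, as given above. Mcts2 lies within H13, a signal peptide peptidase gene. H13 had 8.10, 8.06 and 8.03 FPKM in FGSC and 11.0, 11.3 and 10.9 FPKM in Dif-FGSC (0.41 ± 0.033, adjusted p = 3.03e-05, limma), while Mcts2 was not called. Nnat, at about 0.1 FPKM, lies within Blcap, which rose from 5.94 ± 0.468 to 8.32 ± 0.490 FPKM (0.43, adjusted p = 0.000655, limma). Nap1l5 lies within Herc3, a ubiquitin ligase gene at 0.637 ± 0.0314 FPKM in FGSC and 0.551 ± 0.0478 FPKM in Dif-FGSC, which was too low for the test. Mest overlaps Copg2, a subunit gene of the COPI vesicle coat. Copg2 rose with Mest, from 4.99, 4.79 and 5.10 FPKM to 8.98, 9.05 and 9.72 FPKM (0.78 ± 0.044, adjusted p = 5.91e-06, limma). Whether counting used strand is not stated, so reads from the shared part of such pairs cannot be assigned with certainty. The authors' value for a gene with several transcripts also appears to be a mean over them, which lowers it when some are silent.

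**Figure D4:**
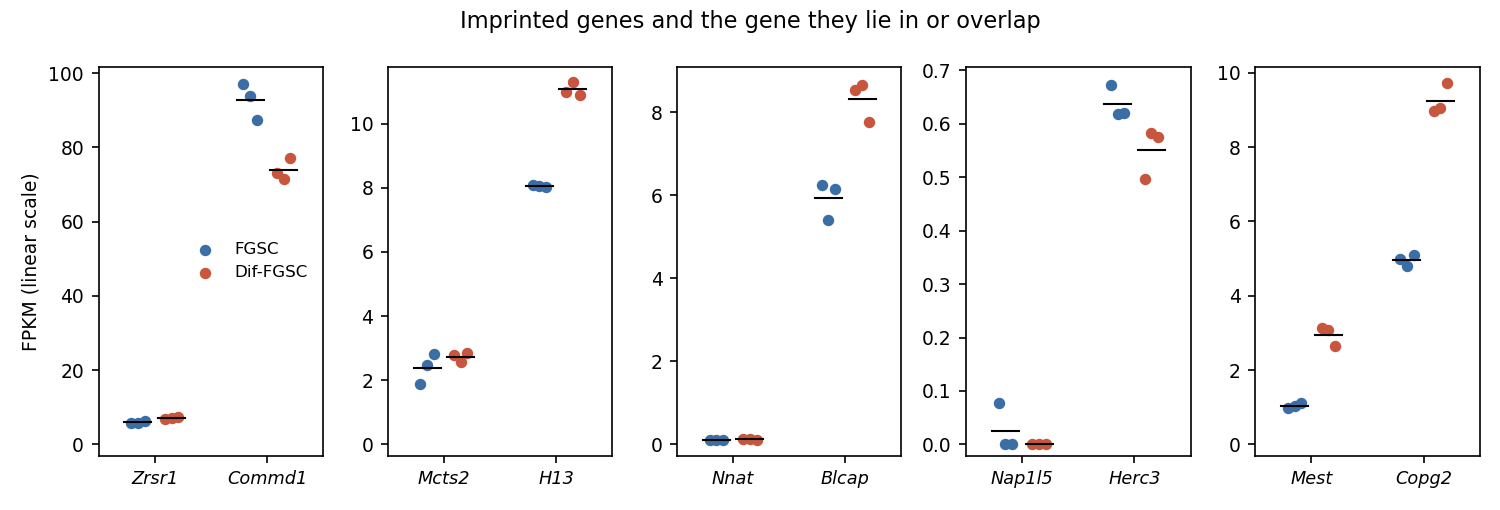
FPKM (linear scale from 0, a separate scale per panel) of 5 imprinted genes and the gene each lies in or overlaps; points are libraries and black bars the means of 3. Copg2 and Mest are both higher in Dif-FGSC, Commd1 is lower where Zrsr1 is higher, and H13 and Blcap are higher beside Mcts2 and Nnat, whose groups overlap.

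Further imprinted genes outside the 40 were read from a list of 57, of which 54 had a row. Of these, 21 were listed at 0 in all libraries, as were 10035 of all 24672 genes. Of the 14 tested, 7 rose, 2 fell and 5 were not called, with a median difference of 0.26 against 0.03 for all genes tested. The share called was near the 65.1% of all genes. The largest rises were those of Copg2, of Chrac1, a histone fold subunit of a chromatin remodelling complex (25.2 ± 1.75 to 40.7 ± 2.07 FPKM, 0.67, adjusted p = 3.84e-05, limma), and of Tnfrsf26, a receptor gene near the Kcnq1 domain (6.94 ± 0.147 to 10.1 ± 0.170 FPKM, 0.48, adjusted p = 2.13e-05, limma). Atp10a, a phospholipid flippase gene beside Ube3a, fell from 10.1 ± 0.458 to 8.02 ± 0.390 FPKM (-0.29, adjusted p = 0.00119, limma). Tssc4, next to Cd81, fell from 6.53 ± 0.511 to 5.73 ± 0.248 FPKM (-0.16, adjusted p = 0.0406, limma). That call was lost without FGSC replicate 3 (adjusted p = 0.0827, limma), Dif-FGSC replicate 1 (0.095) or Dif-FGSC replicate 3 (0.123), and when genes of any level were tested (0.0787).

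Genes that set, protect or read imprints were measured alongside. Of 32 with a row, 23 were tested, and 10 rose, 5 fell and 8 were not called, with a median difference of 0.05. The share called was near the 65.1% of all genes tested, whose median was 0.03. Hells, a chromatin remodeller that DNA methylation depends on, fell from 60.6, 58.5 and 62.9 FPKM to 42.4, 42.0 and 42.9 FPKM (-0.51 ± 0.034, adjusted p = 1.24e-05, limma). Arid4b and Arid4a, both linked to the Snrpn imprinting centre, fell by 0.33 and 0.22 (adjusted p = 0.00471 and 0.00393, limma). Tet3, an enzyme that oxidises methylcytosine, rose from 2.60 ± 0.0988 to 4.49 ± 0.118 FPKM (0.61, adjusted p = 1.89e-05, limma), and Dnmt3a, the methyltransferase that sets imprints in oocytes, from 5.38 ± 0.200 to 7.84 ± 0.143 FPKM (0.47, adjusted p = 4.21e-05, limma). Kdm1b, a histone demethylase needed for imprints in oocytes, was called higher but listed at 0 in 4 libraries and at 5.74 and 5.61 FPKM in Dif-FGSC replicates 1 and 2, and the call was lost when any library but Dif-FGSC replicate 3 was left out (adjusted p = 0.0862 to 0.136, limma).

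Among core genes that maintain imprints, Dnmt1, Uhrf1 and Trim28 had RNA in every library, and the zinc finger genes Zfp57 and Zfp445 did not reach 0.1 FPKM. Dnmt1, which copies methylation at replication, had 16.3 ± 0.361 FPKM in FGSC and 18.0 ± 0.348 FPKM in Dif-FGSC (0.13, adjusted p = 0.00928, limma), a call lost under quantile normalization (0.05, adjusted p = 0.213, limma). Its partner Uhrf1 had 14.3 ± 0.250 and 17.3 ± 0.184 FPKM (0.27, adjusted p = 0.00021, limma). Trim28 was abundant, at 224 ± 6.33 and 217 ± 5.88 FPKM, and was not called (-0.05, adjusted p = 0.236, limma), with the sign turned under quantile normalization (0.07). Zfp57 and Zfp445 stayed below 0.1 FPKM in every library. These 5 genes were chosen for naming after their values were seen.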

How the data were processed

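Poly(A) RNA libraries of 3 FGSC and 3 Dif-FGSC samples were used. The authors deposited FPKM values per gene symbol and library. HISAT2 4.8.2, Cufflinks 2.2.1 and build mm9 are named in the submitters' processing notes; the annotation and the strand setting were not given in the sources used here. From the decimals, the deposited FPKM of a symbol with several transcripts appears to be a mean over them: 0.48% of genes with 1 RefSeq transcript but 82.5% of those with 2 or more carry over 6 significant digits. Levels of different genes are therefore not ranked, and sums over members only add the listed values. The column prefix con was read as FGSC.

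Of 24674 rows, 2 duplicated symbols were dropped. The test was limma 3.58.1 (R 4.3.3) on log2(FPKM + 1) (intensity trend; mean of at least 1 FPKM; Benjamini-Hochberg over all genes tested; threshold 0.05), after a run on simulated data. FPKM holds no counts, so no count model was used. Differences are Dif-FGSC minus FGSC, and the log2(FPKM + 1) scale understates changes of low genes. An exact permutation test of 3 against 3 cannot go below p = 0.1. Nothing says the libraries of a group were separate cultures, so p-values measure the spread between libraries, which may be technical. Depth came from the steps of low values, of which 74.2% to 77.5% lay within 0.1 of a whole fragment.

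Members, their classes (assigned from general knowledge), lists and tests were chosen with earlier results of these data known. Every member with a mean of at least 1 FPKM is named with a test, lower ones by value, and up to 3 called genes per direction of each other list by size of difference; overlapping genes, parent genes and Hspa8 were added after values were seen. Alternatives varied the pseudocount, filter, scaling, variance trend, replicate block and libraries.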

Additional observations from a re-analysis of the deposited data

How the results depend on the processing

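The 6 called members (Mest, Impact, Tspan32, Zrsr1, Gnas and Commd1) kept their direction and call in every alternative in which they were tested, with differences for Mest of 0.92 to 1.01 when 1 library was left out. Called members lower numbered 2 in place of 1, all among the maternally expressed, under median-ratio scaling, quantile normalization, the replicate block and without FGSC replicate 1, by the addition of Osbpl5 (range 1 to 2 with a library left out). With no filter on low values, 2 maternal members (Tspan32 and Igf2r) were higher, 11 of the other imprinted genes were higher, 1 gene of the IGF axis was lower, and the paternal median was 0.01; quantile normalization gave 0.21 for that median and 1 IGF axis gene lower. One of the other imprinted genes was lower under the replicate block, and 1 to 2 with a library left out. Cd81 changed sign without FGSC replicate 3 or Dif-FGSC replicate 1 (range -0.01 to 0.07; -0.0021 and -0.01 there), and Ube3a without FGSC replicate 1 (0.02), FGSC replicate 2 (0.02) or Dif-FGSC replicate 2 (0.03; range -0.04 to 0.03); both were uncalled throughout. Outside the members, Trim28 changed sign under quantile normalization (0.07), and Tssc4 lost its call under the replicate block (adjusted p = 0.0738). Causes were not tested, except that the lack of a filter adds genes near 0. Same-numbered libraries deviated together with correlations of 0.131, 0.0123 and 0.173 (replicates 1, 2 and 3). The values for replicates 1 and 3 were the highest of all pairs, whereas FGSC replicate 2 correlated best with Dif-FGSC replicate 1 (0.106). Whether equal numbers mark pairs was thus not settled, and the main test did not pair them. With the replicate block 3241 genes were higher and 2557 lower, and Osbpl5 passed (adjusted p = 0.0492, limma). Depth limits the members below 0.1 FPKM.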

Other observations

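Some imprinted genes outside the 40 were too low for the test but had groups that did not overlap. They were chosen after their values were seen and are given as values. Non-overlap was common, at 70.7% of the genes tested above that level, and its share below that level was not counted. Values this low rest on few fragments, so no trend is read from them. Ddc, the aromatic amino acid decarboxylase gene next to Grb10, was at 0.00935, 0.0233 and 0 FPKM in FGSC and at 0.373, 0.339 and 0.193 FPKM in Dif-FGSC. Tnfrsf23, a decoy receptor gene of the Kcnq1 domain, was at 0.0705, 0.0671 and 0.0408 FPKM in FGSC and at 0.269, 0.221 and 0.158 FPKM in Dif-FGSC. Ano1, a chloride channel gene, was at 0.0447 to 0.0558 FPKM in FGSC and at 0.144 to 0.208 FPKM in Dif-FGSC. Trappc9, the vesicle trafficking gene that holds the imprinted Peg13, was at 0.418 to 0.503 FPKM in FGSC and at 0.667 to 0.784 FPKM in Dif-FGSC. Cobl was lower still, at 0.00559 to 0.0112 FPKM in FGSC and at 0.0244 to 0.0343 FPKM in Dif-FGSC. In the IGF axis, Irs2, an adaptor of the insulin receptor, went the other way, from 0.110 to 0.140 FPKM in FGSC to at most 0.0221 FPKM in Dif-FGSC.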
